A study of Mus musculus with 12 samples.

Results

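The 10 genes described here mark dendritic cells and their subtypes in mouse, and were read from the gene tables of adipose tissue RNA-seq libraries by their gene symbol, each at 1 locus, out of 24881 features with a usable value. They are Flt3 and Zbtb46, shared by classical dendritic cells, Clec9a, Xcr1, Batf3 and Irf8 of the type 1 subtype, Irf4, Cd209a and Clec10a of the type 2 subtype, and Siglech of plasmacytoid dendritic cells. Collagenase I digestion had split each fat pad into adipocytes and the stromal vascular fraction, whose cells (SVCs) are all those other than adipocytes. The visceral depot was epididymal adipose tissue (EAT) and the subcutaneous depot inguinal adipose tissue (IAT). Donors were C57BL/6J males, 18 weeks old and fed normal chow (NCD), with no treatment and no genotype beyond the strain in the labels. The 2 depots and 2 fractions make 4 groups of 3 libraries each. Whether a library is 1 mouse or a pool is not stated, so that a p-value speaks only of the spread among libraries, and no batch is named.

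Dendritic cells take up antigen, carry it to lymph nodes and present it to T cells. Their precursors expand under the cytokine Flt3 ligand, then split into a type 1 branch set by Irf8 and Batf3, which cross-presents antigen to CD8 T cells, and a type 2 branch that uses Irf4 and serves CD4 T cells. Plasmacytoid dendritic cells secrete type I interferon. Several of these genes work in other cells too: Irf4 and Irf8 in B cells, Irf4 also in adipocytes, Clec10a and the Cd209 family in macrophages, and Zbtb46 in endothelium.

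Levels are in FPKM, which divides the fragments of a gene by its exon length and by the depth of the library, so that genes can be compared per length. A library had 10718 to 12418 features at 1 FPKM or more, on an estimated 14.1 to 24.6 M gene fragments. Across genes, which are not independent replicates, Pearson's r within a group was 0.982 to 0.996. The fraction labels held: the summed level of 8 adipocyte genes was 11277.3 to 15281.6 FPKM in adipocyte libraries and 88.4 to 186 FPKM in SVC libraries. Means are given ± SD of 3 libraries. Differences are in log2(FPKM + 1) ± SE from a limma fit over 13175 features, and a Benjamini-Hochberg adjusted p under 0.05 is called. The added 1 shrinks the differences of genes near or under 1 FPKM. Of the 10 genes 9 passed the filter of 1 FPKM in 3 libraries. Xcr1 did not, with a highest value of 0.827 FPKM.

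**Figure D1:**
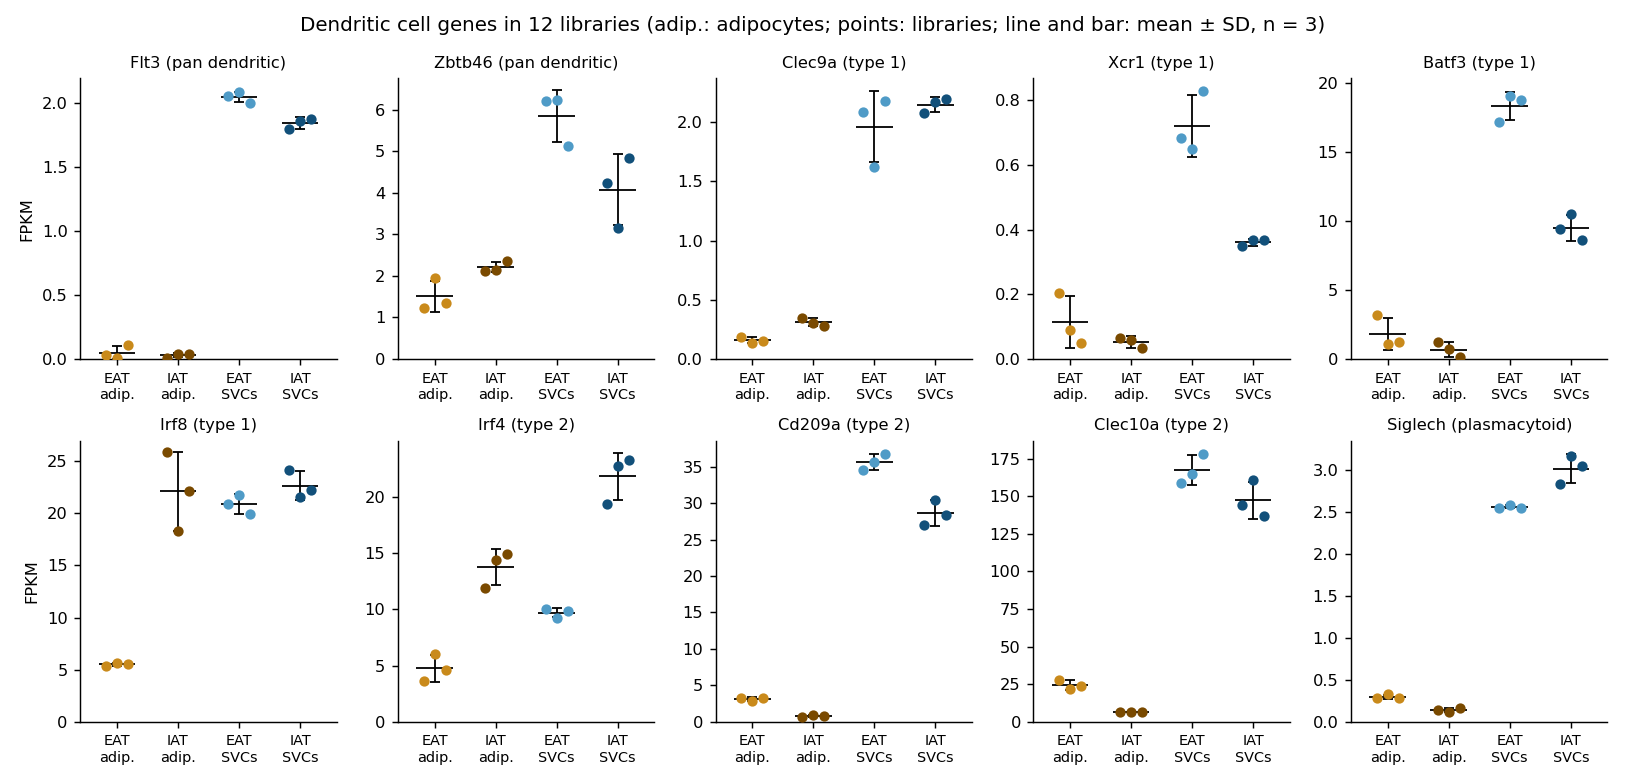
Level of each of the 10 genes in the 12 libraries, with FPKM on a linear axis from 0, 1 point per library and the mean ± SD of each group. Adipocyte libraries lie below the SVC libraries of their depot for every gene other than Irf8, whose IAT adipocyte libraries (18.3 to 25.9 FPKM) overlap those of IAT SVCs (21.6 to 24.2 FPKM).

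Flt3, the receptor for Flt3 ligand on dendritic cell precursors and mature dendritic cells (chr5:147330742-147400489), was measured almost wholly in SVCs. It was at 2.05, 2.08 and 2.00 FPKM in EAT SVCs and at 1.79, 1.86 and 1.87 FPKM in IAT SVCs. EAT adipocyte libraries had 0.0285, 0.011 and 0.109 FPKM, and IAT adipocyte libraries 0.0116, 0.0369 and 0.0406 FPKM. The SVC groups did not overlap, with IAT below EAT in all libraries, but the difference was not called (-0.10 ± 0.054, limma adjusted p = 0.169). The adipocyte values rest on 1 to 9 estimated fragments per library and overlap between depots. Because these are bulk samples, fewer cells of a type and less RNA per cell cannot be told apart, here and in all results that follow.

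Zbtb46, a transcription factor that sets classical dendritic cells apart from other myeloid cells (chr2:181390886-181459426), was at 6.21, 6.23 and 5.13 FPKM in EAT SVCs and at 4.23, 3.15 and 4.85 FPKM in IAT SVCs. All IAT SVC libraries lay below all EAT SVC libraries (-0.44 ± 0.13, limma adjusted p = 0.0168). In adipocytes the order was the opposite. EAT adipocytes had 1.23, 1.94 and 1.35 FPKM and IAT adipocytes 2.13, 2.15 and 2.36 FPKM, without overlap (0.37 ± 0.13, limma adjusted p = 0.0433). Neither call was firm: without EAT SVC replicate 1, EAT SVC replicate 2 or IAT SVC replicate 2 the SVC adjusted p was 0.0617, 0.0601 and 0.0804, and in adipocytes 5 of the 6 libraries ended the call when left out, with adjusted p-values up to 0.123, as did dropping the filter (0.0866) and rescaling to TPM (0.102). The endothelium list, whose cells also use Zbtb46, had 2 of 6 genes higher in IAT and none lower in each fraction, with its other 4 not called. Of all 13175 features 40.2% were called between depots in SVCs and 37.6% in adipocytes. Its summed level was 748 to 785 FPKM in EAT SVCs and 725 to 903 FPKM in IAT SVCs, and 144 to 173 and 142 to 199 FPKM in the respective adipocytes. The part of endothelial cells in the Zbtb46 values was not tested.

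Among the type 1 genes, Clec9a and Xcr1 are surface receptors, the first for exposed actin of dead cells and the second for the chemokine Xcl1. Clec9a (chr6:129408862-129424764) was level between depots in SVCs, at 2.09, 1.62 and 2.18 FPKM in EAT and 2.08, 2.17 and 2.20 FPKM in IAT. These ranges overlap, and the difference was not called (0.09 ± 0.072, limma adjusted p = 0.337). Adipocyte levels were 0.185, 0.138 and 0.149 FPKM in EAT and 0.349, 0.301 and 0.281 FPKM in IAT. All IAT adipocyte libraries lay above all EAT ones, on 7.4 to 22.3 estimated fragments each, and the difference was not called (0.18 ± 0.072, limma adjusted p = 0.0678), though 6 of the alternative settings called it, the lowest adjusted p being 0.0026 with 0.1 FPKM added in place of 1. In the gene models of GENCODE vM21, 184 of the 3293 exon bases of Clec9a lie in Clec1b on the same strand, so some of its fragments may be counted for either gene.

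Xcr1 (chr9:123852315-123862029) stood at 0.682, 0.649 and 0.827 FPKM in EAT SVCs and at 0.349, 0.367 and 0.368 FPKM in IAT SVCs. Every EAT SVC library was above every IAT SVC library, unlike Clec9a. Xcr1 has no test in the filtered fit. In the alternative without a filter its SVC difference was called (-0.34 ± 0.05, limma adjusted p = 0.000472). Adipocytes had 0.205, 0.0891 and 0.0494 FPKM in EAT and 0.0658, 0.06 and 0.033 FPKM in IAT, on 4 to 26 estimated fragments, and the depots overlapped.

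Batf3, the factor that keeps Irf8 active in type 1 cells (chr1:191098414-191108943), had the largest called difference below 0 between the SVC groups. It was at 17.2, 19.1 and 18.8 FPKM in EAT SVCs and 9.42, 10.5 and 8.64 FPKM in IAT SVCs. The lowest EAT library was far above the highest IAT library (-0.88 ± 0.25, limma adjusted p = 0.0145), and EAT held 1.93 times the IAT mean. With 0.1 FPKM added in place of 1 the difference kept its size (-0.94) and lost its call (adjusted p = 0.175). Adipocytes held little, at 3.18, 1.08 and 1.27 FPKM in EAT and 1.2, 0.724 and 0.133 FPKM in IAT. These depots overlap, and the called difference (-0.73 ± 0.25, limma adjusted p = 0.0386) was lost without EAT adipocyte replicate 1, IAT adipocyte replicate 2 or IAT adipocyte replicate 3 (adjusted p = 0.0988, 0.0696 and 0.161). It was also lost without the filter (0.0877), under median-of-ratios scaling (0.0752) and quantile normalization (0.0911), and in a fit of the compared groups alone (0.14). The value of IAT adipocyte replicate 3 rests on 2 estimated fragments.

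Irf8 (chr8:120736358-120756692), which drives type 1 and plasmacytoid fate and also acts in B cells and macrophages, had a pattern of its own. SVC levels were 20.9, 21.8 and 19.9 FPKM in EAT and 24.2, 21.6 and 22.2 FPKM in IAT, overlapping and not called (0.11 ± 0.10, limma adjusted p = 0.411). EAT adipocytes had 5.34, 5.62 and 5.58 FPKM, while IAT adipocytes had 25.9, 18.3 and 22.1 FPKM. IAT adipocytes were thus in the range of both SVC groups, and EAT adipocytes far below all of them. The IAT adipocyte mean was 4.01 times the EAT adipocyte mean (1.81 ± 0.10, limma adjusted p = 4.32e-08), called in all alternatives, on 300.1 to 983.7 estimated fragments per adipocyte library.

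Irf4 (chr13:30749258-30766927), the type 2 factor, which in adipocytes also responds to fasting, was higher in IAT in both fractions. SVCs had 10, 9.23 and 9.86 FPKM in EAT and 19.4, 22.8 and 23.3 FPKM in IAT (1.09 ± 0.13, limma adjusted p = 3.15e-05). Adipocytes had 3.62, 5.99 and 4.62 FPKM in EAT and 11.9, 14.4 and 14.9 FPKM in IAT (1.37 ± 0.13, limma adjusted p = 6.51e-06). No library of one depot reached the range of the other, and both calls held in all alternatives. The size of the depot difference was not shown to differ between fractions (0.28 ± 0.19, limma adjusted p = 0.287).

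Cd209a and Clec10a are C-type lectins, receptors that bind sugars on pathogens and dead cells. Cd209a (chr8:3743395-3748984) was at 34.6, 35.7 and 36.7 FPKM in EAT SVCs and 27.0, 30.5 and 28.4 FPKM in IAT SVCs, without overlap (-0.31 ± 0.079, limma adjusted p = 0.00795). That SVC call was lost under median-of-ratios scaling (adjusted p = 0.0776) and quantile normalization (0.0795). Adipocytes had 3.32, 2.84 and 3.31 FPKM in EAT and 0.677, 0.934 and 0.84 FPKM in IAT, a difference called in every alternative (-1.19 ± 0.079, limma adjusted p = 2.13e-07, and -1.83 with 0.1 FPKM added). EAT libraries were above IAT libraries in both fractions, with the wider gap in log2(FPKM + 1) in adipocytes.

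Clec10a (chr11:70166623-70170836) had the highest level of the 10 genes in EAT adipocytes and in both SVC groups, whereas in IAT adipocytes Irf8 and Irf4 stood above it. It was at 159, 165 and 178 FPKM in EAT SVCs and 144, 161 and 137 FPKM in IAT SVCs. These overlap and were not called (-0.18 ± 0.092, limma adjusted p = 0.142), except after rescaling to TPM (adjusted p = 0.0029). EAT adipocytes had 27.6, 21.5 and 24.0 FPKM and IAT adipocytes 6.48, 6.41 and 6.33 FPKM, or 3.80 times more in EAT (-1.77 ± 0.092, limma adjusted p = 2.1e-08). Clec10a has a close copy in Mgl2, and Cd209a belongs to a family of similar genes, so that fragments may be shared among copies and the levels of each carry that doubt.

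Siglech, a sialic acid receptor of plasmacytoid dendritic cells also seen on some macrophages (chr7:55768178-55778833), was low. SVC libraries had 2.55, 2.58 and 2.55 FPKM in EAT and 2.83, 3.17 and 3.05 FPKM in IAT, all IAT above all EAT (0.17 ± 0.055, limma adjusted p = 0.0239). Adipocyte libraries had 0.283, 0.326 and 0.286 FPKM in EAT and 0.145, 0.116 and 0.159 FPKM in IAT, with the order turned (-0.19 ± 0.055, limma adjusted p = 0.0178). The SVC call was lost without any of 4 single libraries, EAT SVC replicates 1 and 3 (adjusted p = 0.0626 and 0.0558) and IAT SVC replicates 2 and 3 (0.0771 and 0.06), and after rescaling to TPM (0.335), with 0.1 FPKM added (0.153) and in a fit of the compared groups alone (0.0666). The adipocyte call was lost without EAT adipocyte replicate 2 (0.0636) or IAT adipocyte replicate 2 (0.0674).

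The comparison of depots within SVCs asks whether dendritic cell genes differ between visceral and subcutaneous stroma. Of the 9 genes tested, Irf4 and Siglech were higher in IAT SVCs, Batf3, Zbtb46 and Cd209a were lower, and Flt3, Clec9a, Irf8 and Clec10a were not called. These 5 calls of 9 stand against 40.2% of all 13175 features called in the same contrast, where calls are thus common. The median difference of the 9 was -0.10, against -0.06 over all features. Neither the type 1 nor the type 2 genes moved together: of the 3 type 1 genes tested 1 was lower, and of the 3 type 2 genes 1 was higher and 1 lower. Xcr1, of type 1 but not in this fit, was also lower in every IAT SVC library. The plasmacytoid subtype has Siglech alone, which was higher. Of the lists for other cell types, the B cell list was higher in IAT SVCs for 9 of 9 genes tested (10 listed), with a median of 2.18, and the T cell list for 10 of 10, with a median of 2.26. Of these, Pax5, Cr2, Cd8a, Cd8b1 and Themis reached 1 FPKM only in IAT SVCs, and so passed the filter through the higher group. The counts and medians of both lists, here and in the interaction below, are thus partly set by the filter. The macrophage list was lower for 10 of 12, with a median of -0.51. Summed over each list, IAT SVCs had 184 to 288 FPKM of B cell genes against 43.5 to 46.7 in EAT SVCs, 125 to 194 against 18.0 to 18.7 of T cell genes, and 1375 to 1508.9 against 2061.5 to 2163.2 of macrophage genes, with no gene of these lists at 0 in either group. The part of lymphocytes in the Irf4 difference and that of macrophages in the Cd209a difference were not tested. The list of lymph node stroma was mixed in IAT SVCs, with 3 of 8 genes tested higher and 4 lower (median -0.27). Glycam1 was at 17.2 ± 11.7 FPKM in IAT SVCs against 0.0184 ± 0.0319 FPKM in EAT SVCs. Cxcl13 was at 42.1 ± 0.269 against 5.0 ± 0.709 FPKM. Chst4 went the other way, at 0.211 ± 0.0212 against 7.26 ± 0.217 FPKM. Glycam1 reached 1 FPKM only in IAT SVCs and Chst4 only in EAT SVCs, so each passed the filter through its higher group. The part of lymph node tissue in the SVC values was not tested.

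**Figure D2:**
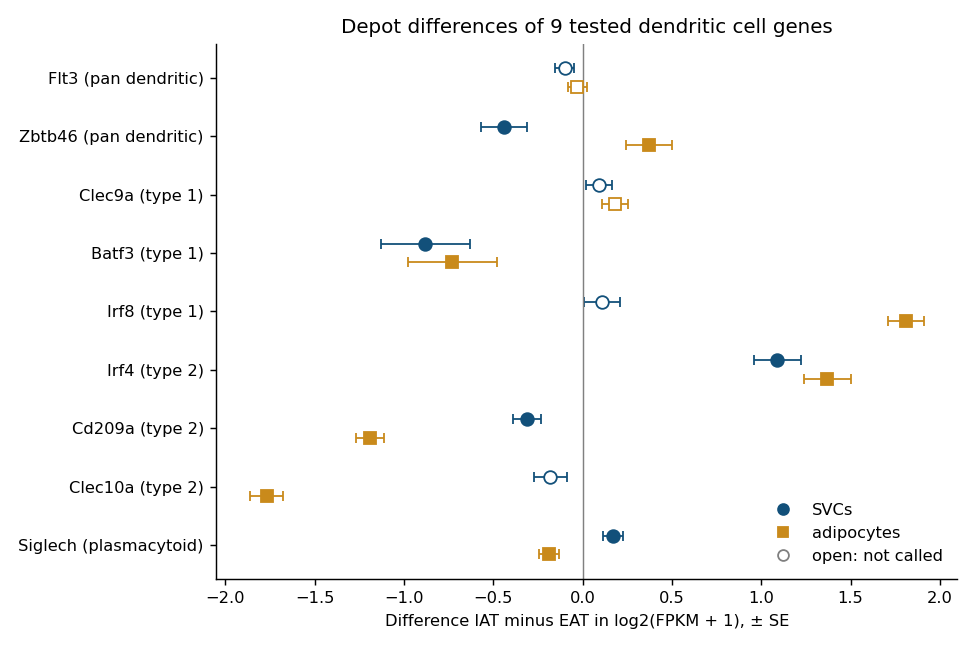
Difference IAT minus EAT in log2(FPKM + 1), ± SE, of the 9 tested genes, in SVCs (circles) and adipocytes (squares), filled where called. Irf4 lies to the right in both fractions (1.09 and 1.37), Irf8 in adipocytes (1.81, against 0.11 in SVCs), and Clec10a and Cd209a lie far to the left in adipocytes (-1.77 and -1.19).

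The comparison of depots within adipocyte libraries gave 7 calls among the 9 genes, against 37.6% of all features. Irf8, Irf4 and Zbtb46 were higher in IAT adipocytes, Clec10a, Cd209a, Batf3 and Siglech were lower, and Clec9a and Flt3 were not called. The median of the 9 was -0.03, against -0.10 over all features. Thus the type 2 genes split, the 2 lectins being lower and Irf4 higher. Leaving out single libraries took the count of members called to between 4 and 6, the lowest without IAT adipocyte replicate 2. The macrophage list was lower in IAT adipocytes for 12 of 12 genes, with a median of -1.95 and a summed level of 52.8 to 70.5 FPKM against 261 to 307 FPKM in EAT adipocytes. B cell genes were higher for 4 of 9 and lower for none, summing to 6.05 to 6.39 against 1.23 to 1.89 FPKM. T cell genes were higher for 1 of 10, summing to 1.96 to 2.53 against 0.426 to 0.496 FPKM, with Cd3d and Cd8b1 at 0 in all EAT adipocyte libraries. The part of macrophages in the lectin differences was not tested. The part of B cells in the Irf8 and Irf4 differences was not tested either.

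The third comparison, of fractions within a depot, asks how far each gene belongs to SVCs. In EAT all 9 genes tested were lower in adipocytes, in a contrast where 83.8% of all features were called and 52.7% were called lower. In IAT 8 of 9 were lower, where 83.7% of all features were called and 53.9% were called lower, and Irf8 was not called (-0.05 ± 0.10, limma adjusted p = 0.669). The median of the 9 was -1.54 in EAT and -1.47 in IAT, against -0.31 and -0.34 over all features. Flt3, Clec9a and Siglech reached 1 FPKM only in the 6 SVC libraries, and so passed the filter through the higher fraction. Their calls here, and the counts and medians that include them, are thus partly set by the filter. Median-of-ratios scaling brought the median of all features to 0.00 in both depots, and the share of calls that were higher from 37.1% to 50.1% in EAT and from 35.6% to 50.0% in IAT. Under that scaling Irf8 was higher in IAT adipocytes (0.36, adjusted p = 0.0068), and Irf4 was no longer called (-0.23, adjusted p = 0.109). Zbtb46 in IAT lost its call under quantile normalization (-0.12, adjusted p = 0.383). The other calls in both depots kept their direction and call under all scalings.

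Expressed as a share of the SVC level, the genes spread widely. Flt3 in adipocytes was at 2.43% of its SVC level in EAT and 1.61% in IAT, the lowest of the 10 in both depots. Clec9a stood at 8.0% and 14.4%, Xcr1 at 15.9% and 14.7%, and Batf3 at 10% and 7.22%. Cd209a was at 8.84% and 2.85%, Clec10a at 14.6% and 4.34%, and Siglech at 11.7% and 4.64%. Flt3, Xcr1, Batf3 and these 3 had a smaller share in IAT than in EAT, with overlapping library ranges for Flt3, Xcr1 and Batf3. Of the lists, the median gene of macrophages went from 13.2% in EAT to 3.94% in IAT, that of plasma cells from 12.7% to 3.3% and that of the other plasmacytoid genes from 13.4% to 6.5%. Clec9a had the larger share in IAT, as did 3 more genes. Zbtb46 was at 25.7% and 54.4%, Irf4 at 48.9% and 62.9%, its library ranges overlapping, and Irf8 at 26.4% and 97.4%. The B cell list had medians of 3.03% and 2.73%, the T cell list 1.35% and 1.36%, and the endothelium list 17.5% and 18.1%.

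**Figure D3:**
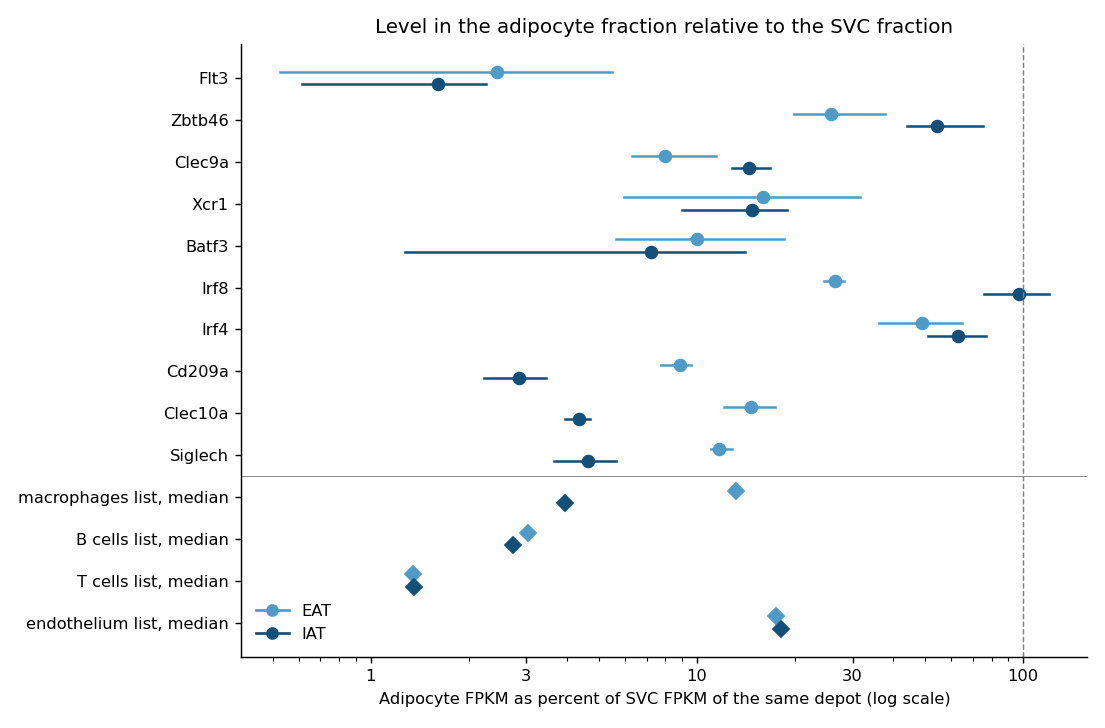
Adipocyte FPKM as a percent of SVC FPKM of the same depot on a log axis, with lines from the lowest adipocyte over the highest SVC library to the highest over the lowest, and diamonds for the median gene of 4 cell type lists. Irf8 in IAT stands at 97.4%, Cd209a, Clec10a and Siglech in IAT at 2.85% to 4.64%, and the macrophage median in IAT at 3.94%.

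Whether the depot difference itself differed between fractions was tested as an interaction, called for 32.5% of all features and for 5 of the 9 genes. Irf8 (1.70 ± 0.14, limma adjusted p = 1.98e-06) and Zbtb46 (0.81 ± 0.19, adjusted p = 0.00516) were shifted towards IAT in adipocytes relative to SVCs. Clec10a (-1.59 ± 0.13, adjusted p = 1.38e-06), Cd209a (-0.89 ± 0.11, adjusted p = 6.19e-05) and Siglech (-0.36 ± 0.078, adjusted p = 0.00353) were shifted towards EAT. Flt3, Clec9a, Batf3 and Irf4 were not called. All 5 interaction calls held without each single library. The macrophage list went in the direction of the 3 surface receptors, being called lower for 11 of 12 genes (median -1.26). The B cell list was called lower for 9 of 9 (median -1.57) and the T cell list for 10 of 10 (median -2.05). Their adipocyte sums were at most 6.39 and 2.53 FPKM, so that the added 1 shrinks depot differences in adipocytes. As a median share of the SVC level, these lists were alike in EAT and IAT (B cells 3.03% and 2.73%, T cells 1.35% and 1.36%). The list of mast cells and neutrophils went the other way for 6 of 8 (median 0.66). The part of these cells in the interaction values was not tested.

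Ratios between genes of 1 library do not depend on its scaling. Within the type 1 subtype, Xcr1 stood at 0.325, 0.401 and 0.379 of the Clec9a level in EAT SVCs and at 0.167, 0.169 and 0.167 in IAT SVCs. The ratio of Batf3 to Clec9a was 8.21, 11.8 and 8.60 in EAT SVCs and 4.52, 4.83 and 3.92 in IAT SVCs. Both ratios were higher in every EAT SVC library than in any IAT SVC library, so Xcr1 and Batf3 did not keep 1 proportion to Clec9a in these libraries. The part of cells other than type 1 cells in these levels was not tested. The ratio of Irf4 to Irf8 was 0.479, 0.424 and 0.495 in EAT SVCs and 0.803, 1.05 and 1.05 in IAT SVCs. In adipocytes the means stood the other way, at 0.857 ± 0.197 in EAT and 0.641 ± 0.167 in IAT, with overlap. Between subtypes, Clec9a to Cd209a was 0.0551 ± 0.00845 in EAT SVCs and 0.0752 ± 0.00352 in IAT SVCs. In adipocytes it was 0.0498 ± 0.00539 in EAT and 0.391 ± 0.108 in IAT, without overlap and on few fragments of Clec9a. Siglech to Flt3 was 1.25 ± 0.0231 in EAT SVCs and 1.64 ± 0.0624 in IAT SVCs. Clec10a to its copy Mgl2 was 1.27 ± 0.0562 and 1.23 ± 0.132 in EAT and IAT SVCs, which overlap, and 1.67 ± 0.0903 and 1.41 ± 0.0494 in EAT and IAT adipocytes, which do not. These ratios are descriptions without a test.

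Wider lists for each subtype gave mixed directions in SVCs. In this contrast 40.2% of all 13175 features were called, 1843 higher in IAT and 3458 lower. Of 13 other type 1 genes tested 4 were higher in IAT and 5 lower, with a median of 0.07 that turned to -0.04 after rescaling to TPM. Among those tested, Ly75 reached 1 FPKM only in IAT SVCs, and so passed the filter through them. Itgae, the integrin CD103, which T cells also carry, was higher in IAT SVCs (2.54 against 0.324 FPKM, 1.41 ± 0.10, limma adjusted p = 1.75e-07). Nfil3, a factor needed early in type 1 development, was lower (27.7 against 50.7 FPKM, -0.85 ± 0.072, adjusted p = 1.05e-06), as was Cadm1, an adhesion molecule of type 1 cells (1.27 against 2.35 FPKM, -0.57 ± 0.076, adjusted p = 6.3e-05). Of 13 other type 2 genes 5 were higher and 6 lower, with a median of -0.13. Sirpa, an inhibitory receptor shared with macrophages, was lower (38.9 against 73.9 FPKM, -0.91 ± 0.058, adjusted p = 6.56e-08). Cd7, Tbx21 and Ltb, which lymphocytes also express, were higher, by 1.57, 0.70 and 1.59.

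Among 12 other plasmacytoid genes tested 7 were higher in IAT SVCs and 5 lower, with a median of 0.45. The share of all features called, for this list and those below, was again 40.2%. Spib, a factor shared with B cells, was higher (8.17 against 1.99 FPKM, 1.59 ± 0.13, limma adjusted p = 6.46e-07), as were Pacsin1, a protein that bends membranes (1.86 against 0.278 FPKM, 1.16 ± 0.051, adjusted p = 1.92e-09) and the interferon factor Irf7 (33.3 against 16.4 FPKM, 0.97 ± 0.11, adjusted p = 1.71e-05). Upb1, an enzyme of pyrimidine breakdown, was lower (0.362 against 1.81 FPKM, -1.04 ± 0.058, adjusted p = 1.72e-08). Pacsin1 and Runx2 of this list reached 1 FPKM only in IAT SVCs and Upb1 only in EAT SVCs. Each passed the filter through its higher group, so their calls and the counts that include them are partly set by the filter. Of 12 other genes shared by dendritic cells 2 were higher and 8 lower, with a median of -0.28, and the count lower was 4 under median-of-ratios scaling. The 2 higher were Ikzf1 and Bcl11a, lymphoid factors too, by 1.17 and 1.45. Csf2ra, the receptor for the growth factor GM-CSF, was lower (-1.40), and so was Itgax, the integrin CD11c (-1.19). Flt3l, the ligand of Flt3, was at 13.4 ± 1.31 FPKM in EAT SVCs and 14.3 ± 1.09 FPKM in IAT SVCs and not called (0.08 ± 0.13, adjusted p = 0.654). In adipocytes it was at 4.44 ± 1.21 FPKM in EAT and 6.14 ± 0.254 FPKM in IAT (0.41 ± 0.13, adjusted p = 0.0257). In the list of mature, migrating dendritic cells 2 of 14 were higher and 6 lower, with a median of -0.18. Apol7c (2.68) and the homing receptor Ccr7 (2.36), which lymphocytes also use, were the higher ones, while the costimulator Cd80 (-1.46) and the cytokine subunit Il12b (-0.94) were lower. Apol7c reached 1 FPKM only in IAT SVCs and Il12b only in EAT SVCs. Both passed the filter through the higher group, which partly sets their calls and the counts that include them. The B and T cell sums given above moved with the higher genes named as shared, and their part was not tested. Kit, Dpp4 and Mgl2 each stand in 2 of the lists.

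**Figure D4:**
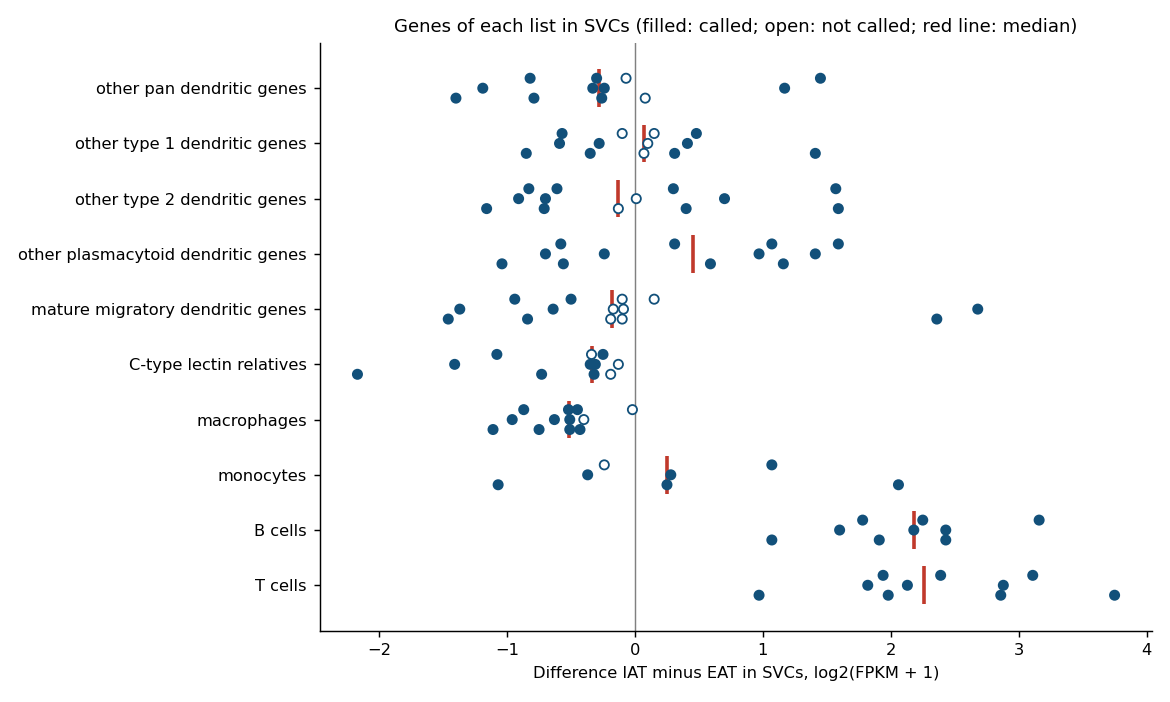
Difference IAT minus EAT in SVCs in log2(FPKM + 1) for the tested genes of 10 lists, filled where called, with the median as a red line. The dendritic cell lists straddle 0 (medians -0.28 to 0.45), the macrophage list lies to the left (-0.51) and the B and T cell lists to the right (2.18 and 2.26).

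Every called lectin relative of Cd209a and Clec10a was lower in IAT, in SVCs and in adipocytes. Of all 13175 features 3458 were called lower in IAT SVCs and 3597 in IAT adipocytes. In SVCs 8 of 11 relatives were lower in IAT and none higher, with a median of -0.34, although only 5 were lower under median-of-ratios scaling. In adipocytes 11 of 11 were lower, with a median of -1.36, and this count was the same under all 3 other scalings. The macrophage list went with them, with 10 of 12 genes lower in SVCs and 12 of 12 in adipocytes (medians -0.51 and -1.95), and its part in the lectin values was not tested. Mgl2, the copy of Clec10a, was at 14.6 ± 1.4 FPKM in EAT and 4.57 ± 0.208 FPKM in IAT adipocytes (-1.48 ± 0.075, limma adjusted p = 1.66e-08). Cd209f (25.3 against 4.85 FPKM, -2.17 ± 0.10, adjusted p = 9.11e-09), Cd209d (12.8 against 2.27 FPKM, -2.05 ± 0.14, adjusted p = 2.35e-07) and Cd209g (12.2 against 2.52 FPKM, -1.90 ± 0.09, adjusted p = 8.67e-09) were lower in IAT adipocytes by more than Cd209a itself, though that gap was not tested. The same 3 had SVC levels above that of Cd209a in EAT, at 191, 95.4 and 97.6 FPKM, against 35.7 FPKM. Cd209b, Cd209c and Cd209e were also lower in IAT adipocytes (-1.2, -0.42 and -0.29). The type 2 list had 3 of 13 higher and 7 lower in IAT adipocytes (median -0.47), among the higher ones Klf4, a factor that stromal cells also use (67.3 against 29.6 FPKM, 1.16 ± 0.077, adjusted p = 2.25e-07). Against the 37.6% of all features called in this contrast, the type 1 list had 2 higher and 4 lower of 13, the plasmacytoid list 3 higher and 2 lower of 12, the shared list 1 higher and 4 lower of 12, and the mature list 3 higher and 7 lower of 14.

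Genes with the most similar pattern over the 12 libraries were sought among all tested features by Pearson's r of log2(FPKM + 1). The 12 points fall in 4 groups and share the step between fractions, so that high values are common. Siglech lay closest to Vav1 (r = 0.9992) and Elmo1 (0.9987), Clec10a to Rgs10 (0.9991), Cd48 (0.9987) and Cd209g (0.9985), and Flt3 to Dpp4 (0.9985). For Cd209a the nearest was Ckap4 (0.9981), for Clec9a Tmem47 (0.9971) and Ifi205 (0.997), for Batf3 Calml4 (0.9906) and for Zbtb46 Gk5 (0.9889). The lowest values were those of Irf4, nearest to Asb13 (0.9763), Emx2 (0.9608) and Itm2a (0.9601), and Irf8, nearest to Dpt (0.9729), Radil (0.9719) and Trex1 (0.9651).

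Promoter sequences are shown for Irf8 and Irf4, whose depot differences in adipocytes were called in all alternatives, and for Cd209a, which went the other way in adipocytes. They are the 250 bases before the start of each RefSeq transcript model (GRCm38.p6), 5′ to 3′ on the gene's strand, and 9 of the 10 genes have an entry. Capitals mark matches to any of 5 motifs searched on both strands: AANNGAAA (IRF factors), GAGGAAGT (PU.1), TGANTCA (AP-1 and BATF), and CAGCTG and CACCTG (E proteins). Irf8 has 2 entries, at chr8:120736108-120736357 and chr8:120738389-120738638 on the plus strand, Irf4 lies at chr13:30748983-30749232 on the plus strand and Cd209a at chr8:3748985-3749234 on the minus strand.
Irf8 promoter 1: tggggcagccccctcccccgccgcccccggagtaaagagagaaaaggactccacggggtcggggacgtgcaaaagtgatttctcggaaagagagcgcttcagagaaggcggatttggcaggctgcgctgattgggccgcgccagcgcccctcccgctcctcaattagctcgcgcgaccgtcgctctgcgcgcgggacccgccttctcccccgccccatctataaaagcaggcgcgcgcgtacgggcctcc
Irf8 promoter 2: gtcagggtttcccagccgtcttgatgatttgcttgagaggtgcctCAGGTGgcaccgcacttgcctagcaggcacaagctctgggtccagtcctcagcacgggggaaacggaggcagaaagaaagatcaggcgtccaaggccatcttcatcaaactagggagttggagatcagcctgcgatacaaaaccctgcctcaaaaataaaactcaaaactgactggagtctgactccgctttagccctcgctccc
Irf4 promoter: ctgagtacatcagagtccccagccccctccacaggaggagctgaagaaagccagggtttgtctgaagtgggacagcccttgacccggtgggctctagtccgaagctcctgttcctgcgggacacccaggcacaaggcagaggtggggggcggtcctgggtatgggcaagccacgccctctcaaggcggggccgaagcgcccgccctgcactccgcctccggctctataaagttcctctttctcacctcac
Cd209a promoter: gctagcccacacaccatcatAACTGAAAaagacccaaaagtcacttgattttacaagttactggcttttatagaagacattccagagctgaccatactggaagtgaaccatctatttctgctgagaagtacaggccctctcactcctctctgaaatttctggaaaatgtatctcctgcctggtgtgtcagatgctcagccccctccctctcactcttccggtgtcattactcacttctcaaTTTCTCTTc
The Cd209a window holds the IRF letters AACTGAAA at -230 to -223 and, on the other strand, TTTCTCTT at -9 to -2, counted from the transcript start. The second Irf8 window has CAGGTG, the reverse complement of CACCTG, at -205 to -200, and the first Irf8 window and the Irf4 window have none of the 5. Zbtb46 had TGACTCA at -61 to -55 and CACCTG at -238 to -233, and Siglech had CACCTG at -20 to -15. The Zbtb46 window (chr2:181424389-181424638, minus strand) lies inside the locus given above for that gene, not at its end. No listed matches overlap. Over 32851 promoters of the same length, 21.3% hold AANNGAAA, 2.44% GAGGAAGT, 6.75% TGANTCA, 13.0% CAGCTG and 17.2% CACCTG. A match is a run of letters, not evidence of binding.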

How the data were processed

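RNA-seq values were taken from 12 deposited gene tables, 1 per library, that hold FPKM with confidence bounds as the authors made them. TopHat, Cufflinks and the build GRCm38 (mm10) are named per the submitters' processing notes. Versions, settings, annotation, strandedness and read length are not given in the sources used here. Features were joined by symbol and locus, and 9 of 24890 with a failed or limited estimate were left out. The bounds gave the estimated fragments behind a value, and 60.5% to 64.8% of values under 20 fragments came to a whole number within 0.02, so no count test was run. Values were fitted as log2(FPKM + 1) with limma 3.58.1 in R 4.3.3 (eBayes with trend, 4 group means, two-sided) over 13175 features that reached 1 FPKM in 3 or more of 12 libraries. Calls were made at 0.05 after Benjamini-Hochberg adjustment over all features of a contrast, and the procedure was tested on simulated data. Members and lists were chosen with earlier results of these data known. All 10 members are named. Of each list the text names members among the 4 smallest p-values per comparison and the relatives of the members. The 3 most similar genes were sought for each tested member. Locus starts, counted from 0 in the tables, are given from 1. Alternatives were other pseudocounts, no filter, 3 scalings, the compared groups alone, eBayes without trend, a replicate block and leaving out each library. Tables were made with pandas 2.3.3 (Python 3.11.15) and plots with matplotlib 3.10.9.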

Additional observations from a re-analysis of the deposited data

Results flagged for a closer look

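For 5 genes the depot difference in adipocytes differed from that in SVCs in the interaction test of the limma fit, where 32.5% of all features were called. Irf8 differed by 1.70, with IAT adipocytes at 22.1 ± 3.8 FPKM and EAT adipocytes at 5.51 ± 0.148 FPKM, against 22.7 ± 1.31 and 20.9 ± 0.938 FPKM in the SVCs. Zbtb46 differed by 0.81, being higher in IAT adipocytes and lower in IAT SVCs. Clec10a differed by -1.59 and Cd209a by -0.89, both with the larger drop in log2(FPKM + 1) from EAT to IAT in adipocytes. Siglech differed by -0.36, on 8 to 18.9 estimated fragments per adipocyte library.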

How the results depend on the processing

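Of 720 alternative values for 45 differences of single genes, 669 kept direction and call, 32 lost the call, 7 gained it and 12 changed sign. Members called in SVCs, 5 in the fit as reported, were 3 with 0.1 FPKM added, and 3 to 5 with a library left out. Members called in adipocytes, 7 as reported, were 4 to 6 with a library left out. Irf8, adipocyte minus SVC in IAT, changed from -0.05 to 0.07 (TPM), 0.36 (median-of-ratios) and 0.09 (quantile normalization), and ran from -0.16 to 0.08 with a library left out. The Flt3 depot difference in adipocytes ran from -0.05 to 0.01. In the interaction, which the compared groups alone cannot give, Flt3 changed from 0.07 to -0.02 (0.1 added) and -0.01 (quantile). The Batf3 interaction changed from 0.15 to -0.52 (0.1 added), -0.07 (0.5 added) and -0.01 (TPM), and ran from -0.07 to 0.46. None of the values that changed sign was called in the fit as reported, the Irf8 value was called under median-of-ratios scaling (adjusted p = 0.0068), and the cause was not tested. The share of depot calls that were higher in IAT was 34.8% in SVCs and 27.5% in adipocytes as reported, 49.2% in both under median-of-ratios scaling, and 24.2% in SVCs after rescaling to TPM. Pairing of same-numbered libraries was not shown, with r from -0.312 to 0.373 and 5 of 18 pairs over 0.1. With 3 libraries per group this check cannot exclude that fractions or depots came from the same mice. With the replicate block 5 members were called in SVCs and 6 in adipocytes, where Zbtb46 was lost (adjusted p = 0.0663). Values of Flt3, Clec9a, Xcr1, Batf3 and Siglech in adipocytes are limited by depth, and the bounds cover counting error only.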

Other observations

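The other interferon regulatory factors, looked at after the values of Irf4 and Irf8 were seen and given without a test, did not share 1 pattern in adipocytes. Irf1 was at 108 ± 4.79 FPKM in EAT and 436 ± 7.56 FPKM in IAT adipocytes, a ratio of 4.02 that stands beside 4.01 for Irf8, with 188 ± 6.74 and 220 ± 14.8 FPKM in the SVCs. Irf7 was at 7.54 ± 0.846 and 23.6 ± 1.41 FPKM, and Irf9 at 5.47 ± 0.13 and 8.38 ± 0.844 FPKM. Irf2 (13.0 ± 1.93 and 13.7 ± 0.369 FPKM) and Irf3 (16.5 ± 1.1 and 17.2 ± 1.31 FPKM) overlapped between depots. Irf5, a factor of macrophages, went the other way, at 2.91 ± 0.313 FPKM in EAT and 0.713 ± 0.186 FPKM in IAT adipocytes.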
